A study of Drosophila melanogaster with 2 samples.

Results

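PolE4, a histone-fold subunit of DNA polymerase epsilon, was set beside 7 genes of complexes that contain such folds. The 8 genes were chosen by name: PolE4 itself, which the labels call Mes4 and which is the tagged gene, its polymerase partners PolE1 and PolE2, the chromatin accessibility complex (CHRAC) genes Chrac-14 and Chrac-16, and Nf-YA, Nf-YB and Nf-YC of the CCAAT-binding factor NF-Y. All 8 were found among the 18164 annotated genes of the chromosome arms, of which 13945 are protein-coding. The data are chromatin immunoprecipitations from whole Drosophila melanogaster embryos of both sexes, aged 0 to 16 h. Every embryo came from 1 transgenic line that makes Mes4 with green fluorescent protein (GFP) at its C terminus, precipitated through the GFP. There was 1 group of 2 biological replicates, numbered 3 and 4, and no untagged line or other condition was analysed here, so no comparison between conditions was possible. The promoter and the length of genomic DNA carried by the transgene are unstated in the labels.

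A histone fold is a short helical domain, shared with the core histones, that works only in pairs. In polymerase epsilon, the enzyme of leading-strand DNA synthesis, PolE1 is the catalytic subunit and PolE2 the second subunit, while the histone-fold pair PolE3 and PolE4 helps to hold the enzyme on DNA. Chrac-14, for which RefSeq also lists the name PolE3, pairs with Chrac-16 in CHRAC, where they accompany the nucleosome-moving ATPase Iswi. In NF-Y, Nf-YB and Nf-YC form the histone-fold pair and Nf-YA reads the CCAAT sequence. PolE4 is also listed in RefSeq under the older name NF-Yc, although Nf-YC is another gene.

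Of the 8 genes, PolE4 alone carried a peak of the authors' optimal list at its start, and the other 7 carried only weaker, relaxed peaks there. The optimal list was made from both replicates with an irreproducible discovery rate (IDR) procedure and holds 3207 peaks, which are exactly the 3207 strongest of the 30000 peaks of the relaxed list pooled from both replicates. Peaks were ranked by the authors' signal value, with rank 1 the strongest, and a gene counted as bound when a summit lay within 500 bp of its transcription start site (TSS). By this rule 1 of 8 genes was bound, against a background of 15.1% of all protein-coding genes (2101 of 13945), which is close to the members' share of 12.5%. Among the strongest 3207 peaks of each replicate alone the same gene, PolE4, was the only one of the 8, against 14.9% of all genes in replicate 3 and 14.7% in replicate 4. In the pooled relaxed list all 8 genes had a TSS-near summit, as had 54.6% of all protein-coding genes. Replicate 3 gave 8 of 8 (background 54.9%) and replicate 4 gave 6 of 8 (background 50.8%), without PolE1 and PolE2. The relaxed lists are labelled as holding background as well as peaks, so an entry in them is not by itself a call of binding. The depth of the libraries is unknown, and both replicates were compared with 1 shared control.

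**Figure D1:**
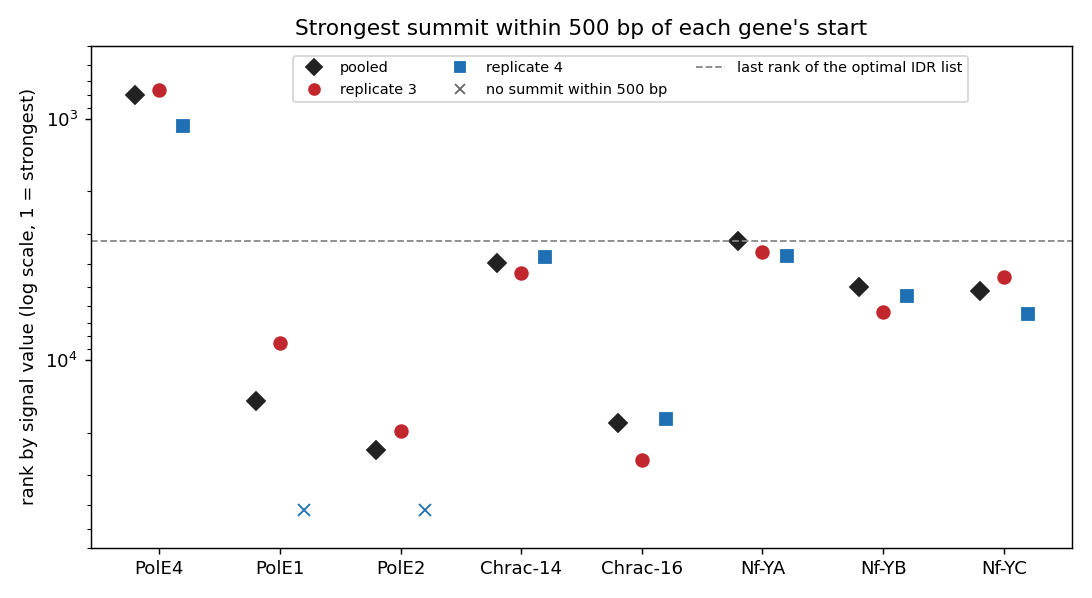
Rank by signal value (log scale, rank 1 at the top) of the strongest summit within 500 bp of each gene's TSS in the pooled list, replicate 3 and replicate 4. The dashed line is at rank 3207, the last pooled rank in the optimal IDR list (a replicate's own rank does not decide entry to that list), and crosses mark genes with no such summit: PolE4 lies above the line in all 3 lists, Nf-YA just below it, and PolE1 and PolE2 have no replicate 4 summit.

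The PolE4 gene (2R, 22411789 to 22412582, plus strand, dm6) is 794 bp long, and its peak lay just before it at 22411398 to 22411813. The pooled signal of this peak was 192, at rank 795. In replicate 3 the signal was 118 at rank 760, and in replicate 4 it was 66.9 at rank 1073. The pooled summit lay 183 bp upstream of the PolE4 TSS, and the replicate summits were 19 bp (replicate 3) and 3 bp (replicate 4) from it. PolE4 has a divergent neighbour, qkr58E-3, a gene for an RNA-binding protein of the quaking family, whose TSS lies 244 bp away on the other strand. The summit was 61 bp from that TSS, so the peak was nearer to qkr58E-3 than to PolE4, and a peak cannot be assigned to one of 2 genes that share a start region. The same held for 602 of the 2101 bound genes (28.7%), whose strongest summit was nearer to the TSS of another gene. Over all 2101 bound genes the median distance from summit to TSS was 125 bp (quartiles 60 to 219). Among TSS-near optimal peaks, the next stronger one lay at muskelin (rank 791, signal 192) and the next weaker at CG32075 (rank 796, signal 191), so PolE4 lay between 2 peaks of nearly equal signal.

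Inside the PolE4 gene body itself no pooled summit was found. Replicate 3 had 1 weak summit there, 530 bp from the TSS, at rank 12296 (signal 23.8), and replicate 4 had none.

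The stretch upstream of PolE4 was dense in strong peaks. Within 5 kb of the gene stood 2 optimal summits, a count that 13.9% of protein-coding genes reach. The second, at 22406893 to 22407308, lay 4688 bp upstream of the PolE4 TSS in a coding exon of CG6044, 1424 bp from the nearest TSS, that of VepD. It ranked 2726 in the pooled list, 3402 in replicate 3 and 2727 in replicate 4, so it was outside the strongest 3207 peaks of replicate 3. Coding exons over 500 bp from any TSS held 9 of the 3207 optimal summits (0.281%), this one included, beside 4246 of the 30000 pooled summits (14.2%). The pooled list held 9 summits in this 10794 bp window, or 0.834 per kb, against a median of 0.319 per kb over all protein-coding genes, and 2.49% of genes had a density as high. Replicate 3 had 10 summits and replicate 4 had 7 in the same window (1.46% and 8.97% of genes as dense). By count rather than density, 16.2% of genes had as many pooled summits, 11.9% as many in replicate 3 and 29.3% as many in replicate 4. Genes like PolE4 by a fixed measure (length within a factor of 2, at least 2 optimal summits within 5 kb) numbered 417. In order of their strongest peak these began with NimC3 (rank 10), then CG11808, Hex-C, a hexokinase gene, and mRpL41, a mitochondrial ribosomal protein gene, which are near 1 and the same peak at rank 16, and Polr2C, a subunit of RNA polymerase II (rank 17).

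Farther out, 8 optimal summits lay in the 50 kb upstream of the PolE4 TSS and none in the 50 kb downstream, where the average for arm 2R is 1.19 per 50 kb. The 8 spanned 22387718 to 22411606, from 24071 to 183 bp upstream. The strongest of them, at rank 189 (22397493 to 22397701, signal 370), stood in an intron of babos, 14175 bp upstream of PolE4, with signals of 197 in replicate 3 and 173 in replicate 4. Another pair, also within introns of babos, ranked 1113 and 1383. The remaining summits of the run lay at the start of babos (rank 2231), at the noncoding RNAs CR44760 (rank 2481) and CR44757 (rank 2587), in CG6044 and at PolE4 itself. Every one of the 8 had a summit within 114 bp in replicate 3 and within 13 bp in replicate 4, and 6 were among the 3207 strongest of replicate 3 and 7 among those of replicate 4. Outside this run the next optimal summits were 99009 bp upstream, nearest to CR44758, and 99148 bp downstream, nearest to px. Counting 50 kb to each side of the TSS, PolE4 had 8 optimal summits where the median gene had 3 (upper quartile 5), and 7.29% of protein-coding genes had as many. All 8 lay on the side of the tagged gene's start, the length of genomic DNA in the transgene is unstated, and its part in these counts and in the signal at the PolE4 start was not tested.

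**Figure D2:**
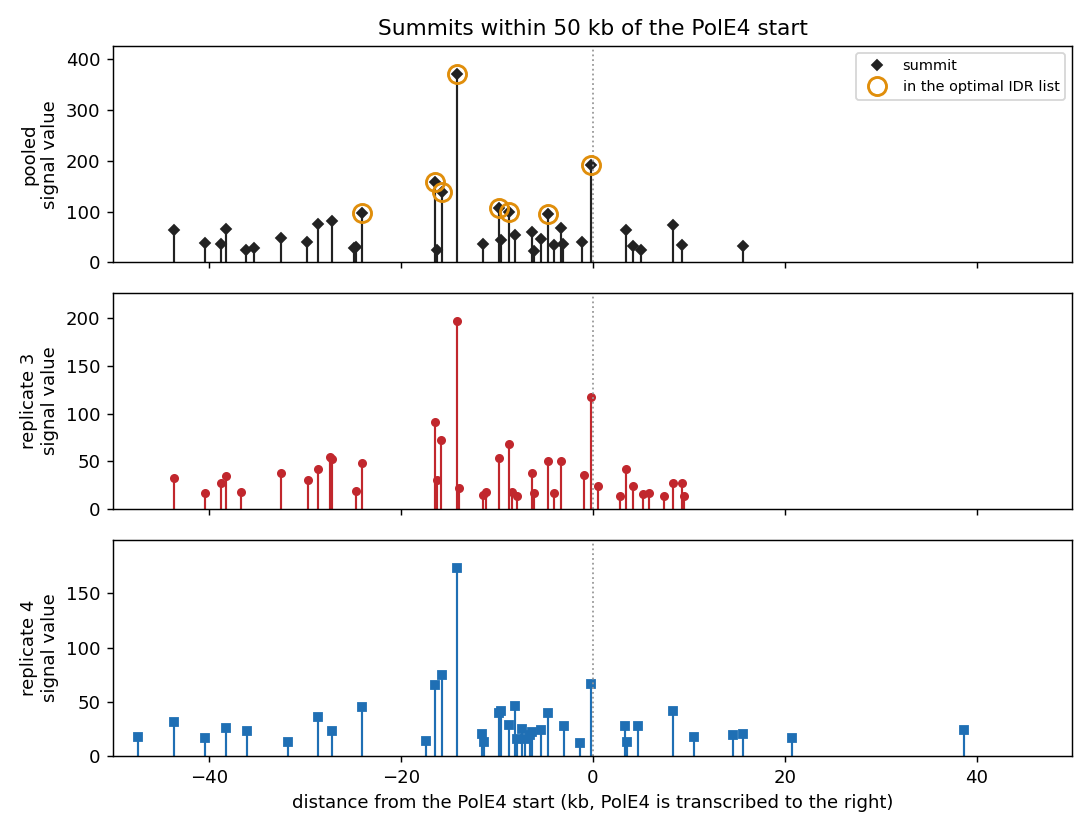
Signal value (linear) of every summit within 50 kb of the PolE4 TSS in the pooled list, replicate 3 and replicate 4, by distance in kb; open circles mark the 8 summits of the optimal IDR list. All 8 lie upstream, the highest 14175 bp away inside babos and the second highest in the pooled list and replicate 3 is the one just upstream of the PolE4 TSS, which in replicate 4 is also below another babos peak (66.9 against 74.8). The y axes differ between the panels.

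The relaxed lists were uneven around PolE4 as well, but they include the 8 optimal peaks or their partners, all upstream. These counts are therefore not separate from those above. Of 37 pooled summits within 50 kb, those 8 included, 31 lay upstream and 6 downstream. The arm average, which also counts optimal peaks, is 11.4 on each side, and the last downstream summit was 15676 bp away. Replicate 3 gave 30 upstream and 10 downstream, the last at 9477 bp. Replicate 4 gave 29 upstream and 9 downstream, reaching 38653 bp. Over 50 kb all 3 lists thus held more summits upstream, and fewer downstream, than the arm average. The first 10 kb downstream were not poor in weak summits, with 5 pooled, 10 in replicate 3 and 4 in replicate 4, where the arm average is 2.27, 2.24 and 2.29.

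The polymerase partners PolE1 and PolE2 had, with Chrac-16, the 3 weakest start-near summits of the 8 in the pooled list. PolE1 (3R, 23348128 to 23355163, plus strand) is the longest of the 8 genes at 7036 bp, and its TSS-near summit lay 7 bp upstream of the TSS at pooled rank 14795 with a signal of 34.8. Replicate 3 had this summit at rank 8511 (signal 29.4), and replicate 4 had none within 500 bp of the TSS. The nearest replicate 4 summit lay 932 bp upstream of the TSS, at rank 2350 (signal 43.3), in the stretch between PolE1 and pnt, a gene for an ETS transcription factor. In the pooled list that stretch held a summit at rank 3518 (23346879 to 23347294, signal 80.9), 1041 bp upstream of PolE1 and 920 bp from pnt, and in replicate 3 one at rank 4239. So near PolE1 the stronger summit was in each list the one about a kilobase upstream, outside the distance that counts as bound.

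Beyond the 3′ end of PolE1 follow ATPsynCF6, a subunit of ATP synthase, Sec13, a coat protein gene, and RpS3, a ribosomal protein gene. Their pooled summits ranked 4439, 5434 and 3335 (signals 70.3, 62.1 and 83.5), stronger than that of PolE1 itself and all outside the optimal list. Altogether 11 pooled summits stood within 5 kb of PolE1, 13 in replicate 3 and 11 in replicate 4, and 0 optimal ones. At 0.646 per kb this was a density that 10.8% of protein-coding genes reach.

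PolE2 (3L, 5895691 to 5897435, minus strand) had the weakest start-near summit of the 8 in the pooled list, at rank 23689 (signal 26.6, 5897389 to 5897804). It stood 162 bp upstream of the TSS and 41 bp from the TSS of the divergent gene CG5592. Replicate 3 had it at rank 19735 (signal 18.1), and replicate 4 had no summit within 500 bp. Of the 7608 protein-coding genes with a pooled summit at a TSS, 92.1% had a stronger one. Only 3 pooled summits lay within 5 kb, none in the gene body and none in the optimal list, the strongest of them in a coding exon of CG32409 (rank 10018, signal 43.2).

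The CHRAC genes differed from each other. Chrac-14 (2L, 8437405 to 8437996, plus strand) had a summit 15 bp upstream of its TSS at pooled rank 3963 (8437182 to 8437597, signal 75.3). Replicate 3 ranked it 4356 (signal 43.8) and replicate 4 ranked it 3737 (signal 33.6), with summits 48 bp upstream and 29 bp downstream of the TSS. The start region is shared with D12, a YEATS-domain gene on the other strand whose TSS is 40 bp away, and the replicate 3 summit was the nearer to D12. Of the genes with a pooled TSS-near summit, 32.7% had a stronger one. Only 1 more pooled summit stood in its window, at rank 25853 near grk.

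Chrac-16 (X, 12017225 to 12017961, minus strand) had no strong summit at its TSS in any list. The best pooled one ranked 18310 (signal 30.9) and lay 349 bp inside the gene, in its coding exon, and another at rank 25203 lay 147 bp inside. Replicate 3 had 1 at rank 25890 (signal 15.3), 14 bp from the TSS, and replicate 4 had 1 at rank 17561 (signal 15.9), 220 bp from it. The 3 lists thus placed it at different points, and the lowest signals in these lists were 22.9, 13.8 and 12.0. The 5 kb around Chrac-16 nevertheless held 9 pooled summits, a count that 16.2% of genes reach, or 0.838 per kb, a density that 2.37% reach. They were spread over regucalcin (4 summits, ranks 5215 to 27770), Lsm12a (rank 7635) and Tango4 (ranks 16627 and 20310), with none in the optimal list.

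**Figure D3:**
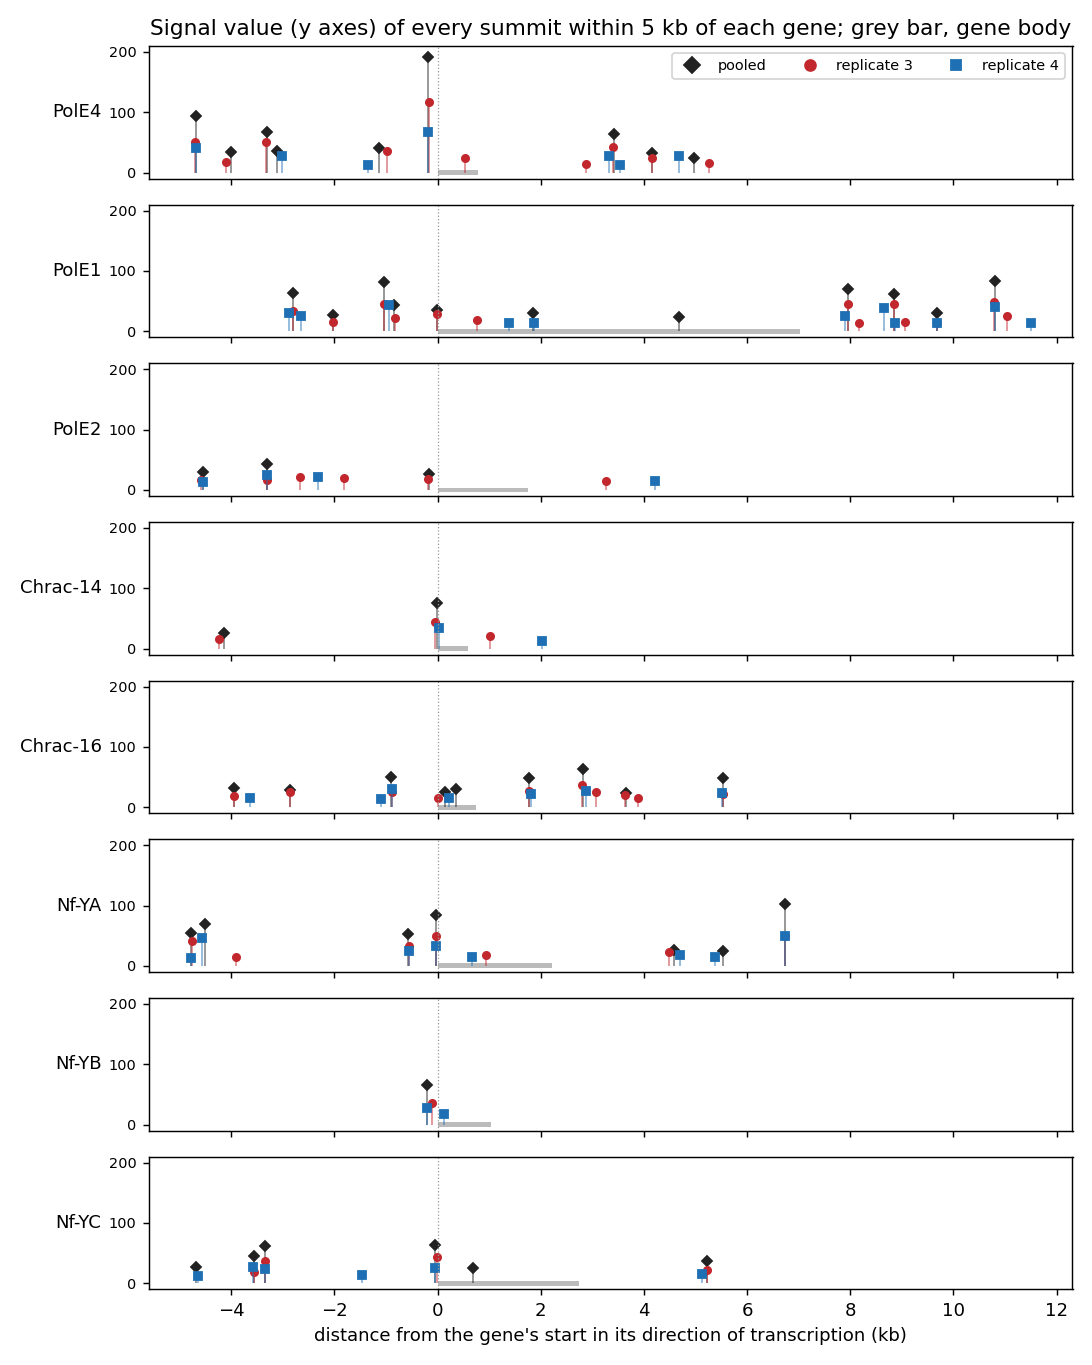
Signal value (linear, same scale in each panel) of every summit within 5 kb of each gene body, by distance in kb from the TSS in the gene's direction of transcription; grey bars are gene bodies. The summits at 192 (PolE4, pooled) and at 103 (Nf-YA, pooled, at MTF-1) are the highest shown in their panels, and Nf-YB has 1 pooled summit, at its start.

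The NF-Y genes had TSS-near summits in both replicates, at pooled ranks where 27.7% to 41.3% of the genes with such a summit had a stronger one. Nf-YA (3L, 9440056 to 9442267, minus strand) came closest to the optimal list. Its pooled summit, 22 bp upstream of the TSS (9442081 to 9442496), had a signal of 85.1 at rank 3222, 15 places below the last optimal peak, whose signal was 85.5. Replicate 3 had it at rank 3582 (signal 49.4) at the same base, and replicate 4 at rank 3694 (signal 33.8) 6 bp away. Nf-YA shares its TSS exactly with Bet3, a gene of the TRAPP trafficking complex, so the summit counts for both. The first peak outside the list, at rank 3208, had a signal of 85.5 as well.

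Within 5 kb of Nf-YA stood the third and last optimal summit near the 8 genes, at 9435325 to 9435740 (rank 2351, signal 103). It lay 3 bp from an internal TSS of MTF-1, the metal-responsive transcription factor gene, and 6734 bp from the TSS of Nf-YA beyond its 3′ end. In replicate 3 it ranked 3532 and in replicate 4 it ranked 1834. The window held 7 pooled summits in all, among them 1 at rank 4467, 85 bp from the TSS of CG3529, and 1 at rank 6985 between Nf-YA and Srg3.

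Nf-YC (X, 6818178 to 6820919, minus strand) had a summit 43 bp upstream of its TSS at pooled rank 5175 (6820754 to 6821169, signal 64.0), with ranks of 4513 in replicate 3 (signal 43.0) and 6438 in replicate 4 (signal 25.4). The divergent gene xit starts 97 bp away. Nf-YB (2L, 19736044 to 19737088, plus strand) had its summit 204 bp upstream of the TSS at pooled rank 4979 (19735632 to 19736047, signal 65.6). Replicate 3 ranked it 6305 (signal 35.3) and replicate 4 ranked it 5433 (signal 27.6), and in all 3 lists it was nearer to the TSS of the divergent CG10462, which starts 64 bp from Nf-YB. This was the only pooled summit within 5 kb of Nf-YB, where the median protein-coding gene has 4. Among the 3 NF-Y genes the order by pooled signal was Nf-YA, Nf-YB, Nf-YC. Replicate 3 exchanged Nf-YB and Nf-YC and replicate 4 did not, so these neighbours in the order did not keep it in both replicates.

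The summit regions of Chrac-14, Nf-YA and Nf-YC, which had the strongest start-near summits of the 8 after PolE4 where the summit was nearest to the gene's own TSS, are shown over 100 bases to each side of the pooled summit, 5′ to 3′ in the gene's direction, from the RefSeq Release 6 genome (dm6). Capitals mark matches to the motifs described in the next paragraph, on either strand.
Chrac-14, chr2L:8437290-8437490, plus strand: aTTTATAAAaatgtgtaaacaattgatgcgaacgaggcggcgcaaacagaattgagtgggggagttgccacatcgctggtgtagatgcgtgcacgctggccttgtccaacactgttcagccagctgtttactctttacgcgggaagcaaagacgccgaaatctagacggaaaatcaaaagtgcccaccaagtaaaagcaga
Nf-YA, chr3L:9442189-9442389, minus strand: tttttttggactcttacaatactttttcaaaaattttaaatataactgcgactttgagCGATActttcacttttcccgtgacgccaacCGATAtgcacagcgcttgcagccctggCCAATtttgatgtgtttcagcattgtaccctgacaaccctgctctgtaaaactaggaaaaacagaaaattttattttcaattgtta
Nf-YC, chrX:6820862-6821062, minus strand: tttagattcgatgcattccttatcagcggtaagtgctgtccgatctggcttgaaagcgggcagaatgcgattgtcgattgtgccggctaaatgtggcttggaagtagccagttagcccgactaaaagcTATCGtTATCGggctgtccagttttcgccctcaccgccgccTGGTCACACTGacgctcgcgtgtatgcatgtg

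The motifs searched were the DNA replication-related element DRE (TATCGATA), the shorter BEAF-32 site CGATA that lies within it, the CCAAT box of NF-Y (CCAAT), the E2F sites TTTCCCGC and TTTGGCGC, the GAGA site GAGAG, the TATA box TATAAA and Motif 1 of core promoters. Each was sought on both strands, in windows from 250 bases before the TSS to 50 bases after it. The CCAAT box was in 6 of the 8 windows, against 46.7% of all 13945 promoters, and the CGATA site also in 6, against 47.4%. A CCAAT box lay 7 bases upstream of the Nf-YA TSS, 91 bases upstream of the PolE1 TSS and 72 upstream of the PolE2 TSS. Its other holders were Chrac-14, Chrac-16 and Nf-YC, while PolE4 and Nf-YB had none in this window. The TTTGGCGC site was in PolE1 and Nf-YB (2 of 8, against 2.36% of promoters), TTTCCCGC in none (1.43%), GAGAG in 2 (29.7%), TATAAA in 4 (45.8%) and Motif 1 in Nf-YC alone (4.50%). At the summits, within 100 bases, CCAAT was in 4 of 8 windows against 33.5% of the 9914 pooled TSS-near summits. The 4 were PolE4, PolE1, PolE2 and Nf-YA, so the PolE4 summit had a CCAAT box that its start window did not. Among the same 8 summit windows CGATA was in 2 (32.4% of the pooled TSS-near summits), TTTGGCGC in 2 (1.61%) and TATAAA in 3 (20.7%). GAGAG was in 2 (26.3%), Motif 1 in 1 (2.59%), and TTTCCCGC and the DRE in none. These shares were not tested.

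The DRE, known from promoters of replication genes, was in the start windows of PolE4, PolE2 and Nf-YB (3 of 8), against 9.36% of all promoters. In PolE4 it began 31 bases upstream of the TSS, in PolE2 1 base upstream, overlapping the TSS, and in Nf-YB 67 bases upstream. None of the 3 lay within 100 bases of the pooled summit. For Nf-YB this depended on the list, as the replicate 3 summit, 98 bp upstream of the TSS, was within 100 bases of the DRE.

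PolE2 and Nf-YB are shown from 100 bases before to 49 after the TSS with the DRE in capitals, because they pair the same element with a weak summit and with a stronger one, at ranks 23689 and 4979 in the pooled list.
PolE2, chr3L:5897386-5897535, minus strand: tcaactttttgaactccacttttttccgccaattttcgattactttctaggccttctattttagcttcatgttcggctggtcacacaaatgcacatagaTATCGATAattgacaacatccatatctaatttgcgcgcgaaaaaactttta
Nf-YB, chr2L:19735944-19736093, plus strand: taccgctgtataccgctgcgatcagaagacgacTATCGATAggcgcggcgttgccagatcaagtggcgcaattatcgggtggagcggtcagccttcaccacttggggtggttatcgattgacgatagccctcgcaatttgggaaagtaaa

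Divergent starts were common among the 8 genes. The TSS of a protein-coding neighbour on the other strand lay within 250 bp upstream for 5 of them (PolE4, PolE2, Chrac-14, Nf-YB and Nf-YC, at 244, 203, 40, 64 and 97 bp), against 13.6% of all protein-coding genes. Over all genes, those with such a neighbour were bound in 30.5% of cases (578 of 1895) and those without in 12.6% (1523 of 12050). Of the 5 members with one, 1 was bound, and of the 3 without, 0. The bound member was PolE4, at 244 bp, so a cut shorter than that would move it to the other class. No other distance was tried, and this comparison was not among those planned. By pooled rank the 5 stood at 795, 3963, 4979, 5175 and 23689, and the 3 at 3222, 14795 and 18310, so the classes overlapped, and their difference was not tested.

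**Figure D4:**
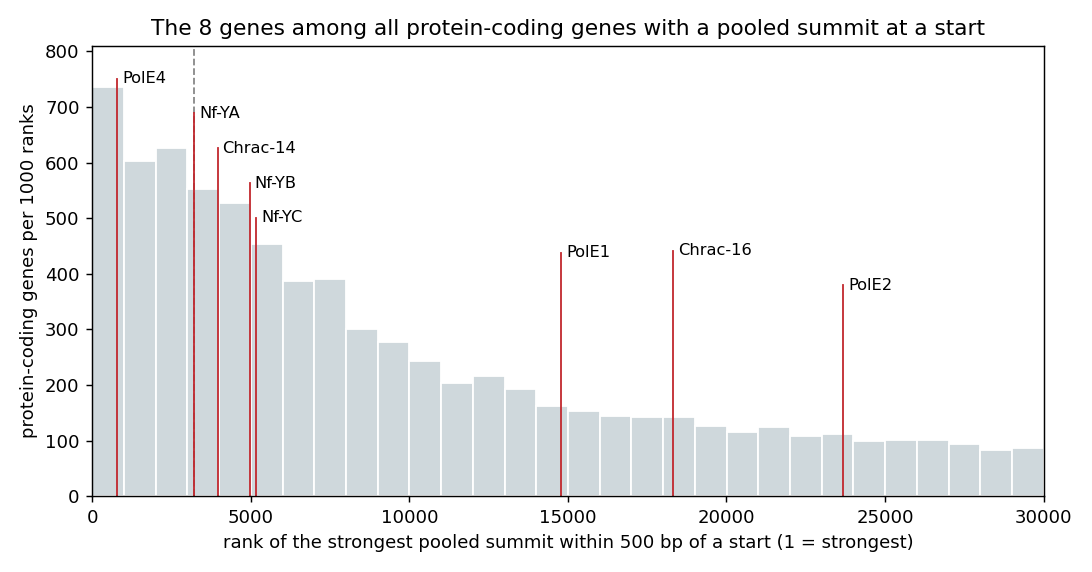
Number of protein-coding genes per 1000 ranks (linear) by the rank of their strongest pooled summit within 500 bp of a TSS; red lines mark the 8 genes at heights chosen only for legibility, and the dashed line is the last rank of the optimal IDR list. PolE4 stands in the tallest bar, Nf-YA, Chrac-14, Nf-YB and Nf-YC between ranks 3222 and 5175, and PolE1, Chrac-16 and PolE2 between 14795 and 23689.

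Around all 8 genes together the lists held 3 optimal and 48 pooled summits within 5 kb. An optimal summit was within 5 kb of 2 of the 8 genes, PolE4 and Nf-YA, against 38.9% of all protein-coding genes. All 3 optimal summits had a partner within 200 bp in both replicates, as had 99.8% of the whole optimal list. Of the 48 pooled summits 28 (58.3%) had one in both, 11 in replicate 3 only, 6 in replicate 4 only and 3 in neither, beside 49.6% in both for all 30000. The count of strong summits was not stable between replicates. Among its own 3207 strongest peaks replicate 4 had 7 near the 8 genes, of which 2 were near PolE4, 3 near PolE1 (rank 2350 upstream of it, 2763 at RpS3 and 2892 at Sec13) and 2 near Nf-YA (rank 1834 at MTF-1 and 2149 at CG3529). Replicate 3 had 1, the peak at the PolE4 start.

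Related genes outside the 8 also carried optimal peaks at their starts. Of 31 other polymerase and replication fork genes, 7 were bound (22.6%, beside 15.1% of all protein-coding genes), and 26 had a pooled summit at a TSS (83.9%, beside 54.6%). Of these, Mcm2 and RPA1 were counted through 1 shared peak, at rank 17916. The strongest were dpa, which encodes Mcm4 of the replicative helicase (rank 922), Ctf4 (rank 956), PolD2 of polymerase delta (rank 1416) and the primase gene Prim1 (rank 1482). Ctf4 and Prim1 share their peaks with CG8067 and CG7083, whose TSSs are nearer. The peaks of Psf1, Mcm5 and Sld5, also bound, were likewise nearer to other genes, Sac1, Art1 and CG14543. Of the 7 bound genes only dpa and PolD2 were the nearest gene to their peak. The median rank over the list, with unlisted genes placed last, was 11838, beside 5077 for the 8 genes and 23408 for all protein-coding genes.

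Of 17 other histone-fold genes, 3 were bound (17.6%, close to the 15.1% of all protein-coding genes): NC2alpha, a subunit of the transcription repressor NC2 (rank 524, signal 238), His2Av, the H2A variant gene (rank 546), and Taf4, a TFIID subunit (rank 646). The His2Av peak was nearer to the start of ball. The partner of NC2alpha, NC2beta, stood at rank 7708, and Taf12, which pairs with Taf4 in TFIID, at rank 26317. These pairs were chosen after their values were seen. Among 6 genes for Iswi and its partners, 2 were bound (33.3%, beside the same 15.1%): E(bx), the largest subunit of the NURF remodeller (rank 1651), and Acf, the Iswi partner that CHRAC shares with ACF (rank 3159, nearer to Mccc1). Iswi itself followed at rank 3421, tou at 5158, Caf1-55 at 7499 and Nurf-38 at 12762. The median ranks were 10614 for the histone-fold list and 4289 for the Iswi list. NSD, whose older name Mes-4 differs from that of PolE4 only by a hyphen, had no optimal summit within 5 kb and a pooled TSS-near summit at rank 5077.

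**Figure D5:**
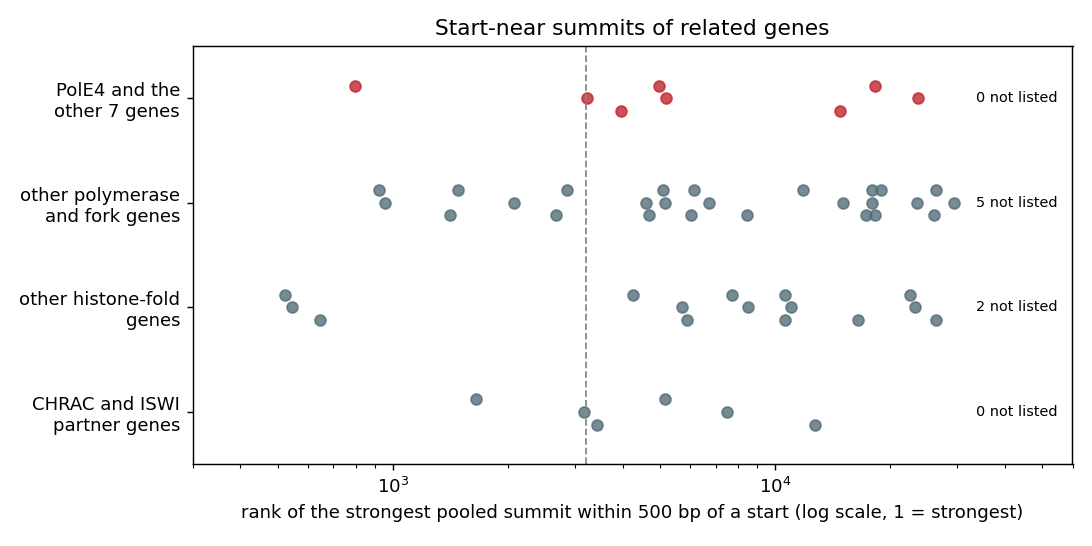
Rank (log scale, strongest to the left) of the strongest pooled summit within 500 bp of a TSS for the 8 genes and the 3 lists of related genes, 1 point per gene, spread vertically only for legibility; the dashed line is the last rank of the optimal IDR list. PolE4 lies left of the line among the 8 genes, beside 7 of 31 fork genes, 3 of 17 histone-fold genes and 2 of 6 Iswi partner genes, and the text at the right counts genes with no pooled summit there. Mcm2 and RPA1 share a peak and so a rank, as do Taf10 and Taf10b.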

How the data were processed

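Both samples are chromatin immunoprecipitations from the same GFP-tagged line, with fragments of 200 to 800 bp per the labels. The 4 peak lists in dm6 were used: the relaxed list of each replicate, the pooled relaxed list and the optimal IDR list, which the authors made from the other 3, per the deposited readme files. The lists in dm3 were not used here. The aligner, peak caller and IDR threshold were not given in the sources used. The deposited signal value, whose scale is not stated, served only to rank peaks within a list. The deposited −log10 q-value stood at its maximum of 3.89 in every optimal peak and was not used to rank. The deposited files give no read counts.

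Summits were placed on Ensembl release 115 genes (dm6) in Python 3.11.15 with pandas 2.3.3, and sequence came from the RefSeq Release 6 genome, whose arms exceed every peak end. Windows ran from 5 kb before to 5 kb after each gene body. With 1 group there was no test, and the counts are descriptions beside those for all protein-coding genes. Only the distance rule at the TSS and the counting of summits in a window were checked on simulated positions. Ranking, gene location and motif search were not. The 8 genes, the lists of related genes and the motifs were chosen with earlier results of these data known. The genes named are the 8, the nearest genes of their peaks, the 4 strongest bound of each list, the 5 most like PolE4, its neighbours in rank, and NSD. Other genes around the 8, in the run of peaks upstream of PolE4 and in the fork, histone-fold and Iswi lists were named after their values were seen. A planned comparison of the proteins was not made here.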

Additional observations from a re-analysis of the deposited data

How the results depend on the processing

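The count of bound genes stayed at 1 of 8 under TSS distances of 250 and 1000 bp, protein-coding TSSs only, the stronger 1603 optimal peaks, merged peaks and each replicate alone. With the PolE4 summit at rank 795 and 183 bp from its TSS, the 250 bp distance and the stronger 1603 peaks could not change this count. Shares of all protein-coding genes are given above for each replicate alone but not for the other settings. The 3 optimal summits within 5 kb of the 8 genes became 1 with a window of 2 kb, 5 with 10 kb, 1 with the stronger 1603 peaks and 1 without the 50 kb to each side of the PolE4 TSS (an alternative chosen after seeing the data). With a replicate left out, the 3207 strongest relaxed peaks of the other replicate stood in for the optimal list, so these are not IDR calls. They gave from 1 (without replicate 4) to 7 (without replicate 3). For PolE4 alone the 2 summits became 1 with a window of 2 kb, 4 with 10 kb and 1 with the stronger 1603 peaks. The strongest peaks of a single replicate, used in the same way, gave 1 to 2. The 48 pooled summits became 20 with 2 kb and 74 with 10 kb, and the relaxed lists of the single replicates held 47 to 54. Fewer summits with a narrower window or a shorter list follow from how these settings are made. The cause of the difference between replicates was not tested. The 3 optimal summits were matched in both replicates at 100 and 500 bp too. Depth is unknown, so no precision can be given for a single rank.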
